A study of Arabidopsis thaliana with 36 samples.

Results

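Transcript levels in roots were compared with those in leaves of Arabidopsis thaliana plants grown in orbit, to find which differences between the organs were present there and which of them were also found on the ground. Flight combines the absence of gravity with the other conditions of spaceflight, and the authors state that gravity was not separated from these. The comparison holds 10 of the 36 arrays of the study, namely 5 of flight roots and 5 of flight leaves, 1 of each from plate 2, 2 from plate 4 and 2 from plate 6, and the organs were paired by plate and replicate number. Such a pair is called a pool here, although the labels do not say in words that its roots and leaves came from the same plants. The same comparison in 5 ground control root and 5 ground control leaf arrays stands beside it. Every plant carried a green fluorescent protein (GFP) reporter, driven by the alcohol dehydrogenase promoter (Adh::GFP), by a synthetic auxin response element (DR5::GFP) or by the constitutive CaMV 35S promoter (labelled UB::GFP), and the labels give the material as 60% WS and 40% Col-0 cultivar. Each array therefore measured a pool of plants of mixed line and cultivar. The seeded plates of all 4 groups were first kept dormant for 12 days. Plants of all 4 groups grew upright on solid medium in an Advanced Biological Research System chamber and were 12 days old when fixed in RNAlater. The flight chamber was on the International Space Station, and the ground control chamber stood in an environmental simulator that followed the station's temperature and carbon dioxide from telemetry. Leaves were cut at the petiole base and are called shoots in the sample titles, and hypocotyls went to arrays that were not used here.

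Roots and leaves divide the work of a plant. Leaf cells hold green chloroplasts, fix carbon and exchange gas through stomata, while roots take up nitrate, potassium and other ions through root hairs and seal their vascular cylinder with the Casparian strip and suberin of the endodermis. Many plastid enzymes of nitrogen and redox metabolism exist as pairs, a leaf type fed by the photosynthetic electron chain and a root type fed by sugar oxidation. Gravity is sensed by starch-filled plastids that settle in root cap and stem endodermis cells, and the signal is passed on by directed auxin transport.

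The deposited signal is the brightness of an Affymetrix ATH1 probe set as summarised by the MAS5 algorithm, on a linear scale with the same trimmed mean on every array. A difference is given here as roots minus leaves on the log2 scale, so that positive values are higher in roots. Its standard error (SE) is the moderated one of the limma fit to 5 pools, which also draws on the variances of all probe sets. A probe set was called at an adjusted p under 0.05 (limma with the plant pool as block, Benjamini-Hochberg adjustment) and a difference of at least 1, which is 2-fold. The 25th percentile of the signal was 31.2 to 34.5 on flight leaf arrays, 38.1 to 47.0 on flight root arrays, 35.6 to 46.2 on ground root arrays and 32.9 to 68.9 on ground leaf arrays, with the highest value on the plate 2 ground leaf array. Signals in that range carry little information, so that large differences rest on how near to 0 the dim organ was read. Probe sets in the lowest 40% by mean log2 signal, taken over the compared root and leaf arrays together, are therefore called low-signal. A gene that is bright in roots or leaves alone and at the floor in the other organ can thus also be low-signal. In a pooled organ, fewer cells of a type and less transcript per cell cannot be told apart.

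Of 22746 probe sets, 3028 were called higher in flight roots (13.3%) and 2486 higher in flight leaves (10.9%). In ground control 2645 were called higher in roots (11.6%) and 2797 higher in leaves (12.3%). Both comparisons called 2184 probe sets higher in roots, which is 72.1% of the flight calls and 82.6% of the ground calls. Both called 2158 higher in leaves, which is 86.8% of the flight calls and 77.2% of the ground calls. Which organ held more calls depended on the processing. Quantile normalization gave 2506 root and 2881 leaf calls in flight and 2012 and 2349 in both environments, and leaving out low-signal probe sets gave 1749 and 1921 in flight and 1452 and 1682 in both. Across all probe sets 19.1% were called the same way in both environments. No leaf call of flight was a root call on the ground. Only 3 root calls of flight were leaf calls on the ground, AT4G08420, ABCB18 and ECP63, all of them low-signal, with mean flight root signals of 38.7, 22.9 and 44.1.

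Signal strength moved with the share of flight calls found again on the ground. Of the root calls of flight 43.6% were low-signal, against 24.1% of the leaf calls. Among calls that were not low-signal, 1451 of 1709 root calls (84.9%) and 1731 of 1888 leaf calls (91.7%) were also called on the ground. Of the 841 root calls made in flight alone, 583 were low-signal, 721 pointed the same way in ground control and 312 reached 2-fold there without passing the test. Over the 13647 probe sets that were not low-signal over all 20 arrays, the organ differences of flight and ground correlated with Pearson r = 0.972 across genes, and over all probe sets with r = 0.871. Genes are not independent replicates, so these values only describe the point cloud.

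**Figure D1:**
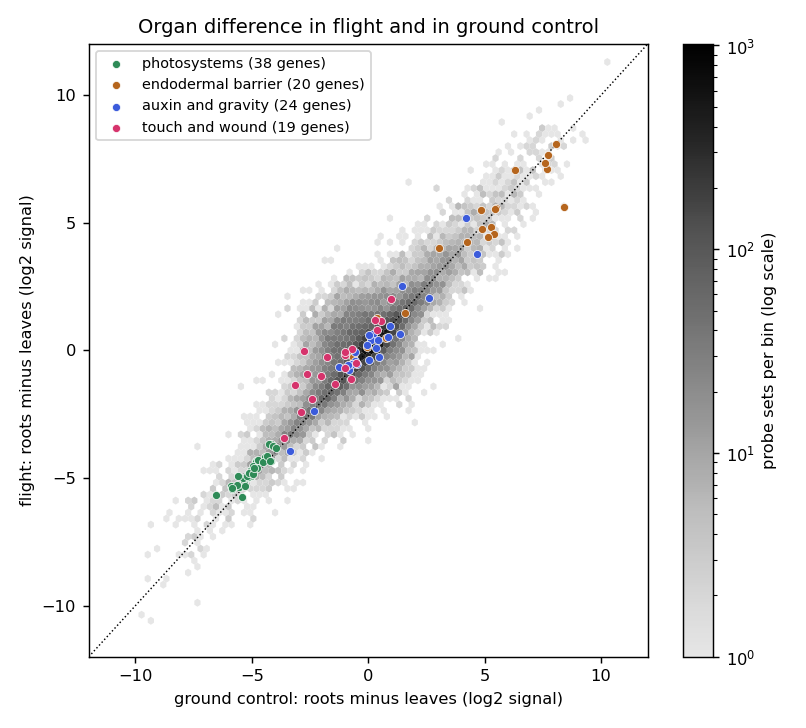
Organ difference (roots minus leaves, log2 signal) of each probe set in ground control (x axis) and in flight (y axis), as shaded bins that count probe sets on a log scale, with 4 gene lists as coloured points and equality as a dotted line. Photosystem genes lie at the lower left and endodermal genes mostly at the upper right along the line, auxin and gravity genes are mostly near the centre, and 18 of the 19 touch and wound genes lie above the line.

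A call in both environments does not show that a difference was equally large. The organ difference in flight minus that in ground control, the interaction of organ and environment, was fitted on all 20 arrays. Its 95% interval lay within 2-fold either way for 1617 of the probe sets called in both (705 higher in roots and 912 higher in leaves), which is 7.11% of all probe sets, and for 42.2% of all probe sets whether called or not. The count of 1617 became 2697 with an offset added to every signal before the log and 890 on plate means. The interval reached a median of 0.61 to either side for probe sets that were not low-signal and of 2.34 for low-signal ones. Each interval holds for a single probe set, before adjustment over all of them. The adjusted test was less sensitive: in this fit an interaction of 2.33 in CBF1, which is not low-signal, did not pass. Few adjusted calls therefore do not show that few organ differences shifted by 2-fold.

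The root genes with the largest differences in flight, with a mean root signal of at least 1000, were MLP328, CLE2, AT3G58550, AT2G16005, AT4G33720, PRP3, AT4G38080, AT5G09480, CYP708A2 and AT5G23830. MLP328 (AT2G01520), which encodes a major latex protein-like protein, read 28801, 16927, 18318, 23905 and 24077 in the flight roots of plate 2, plate 4 (pools 1 and 2) and plate 6 (pools 1 and 2). In the leaves of the same pools it read 87.4, 101, 4.75, 39.8 and 2.70. Root and leaf arrays did not overlap, with a difference of 10.00 ± 0.92 (adjusted p = 0.001, limma), or 8.20 after an offset of 38.2, the median 25th percentile of the arrays, was added to every signal. CLE2 (AT4G18510), the precursor of a small signalling peptide, read 1015, 1533, 1289, 1859.8 and 1309 in flight roots and 1.62, 3.47, 1.48, 2.21 and 1.21 in flight leaves. Its leaf signals were at the bottom of the scale on every array, and its difference of 9.53 ± 0.23 became 5.14 with the offset. PRP3 (AT3G62680), a cell wall protein of root hairs, had a difference of 8.73 ± 0.63 and CYP708A2 (AT5G48000), the thalianol hydroxylase of a root triterpene pathway, one of 8.62 ± 0.75. All 10 were also called higher in ground control roots, with differences of 6.23 (AT5G23830) to 8.64 (MLP328). The offset shows how far such sizes depend on the dim organ: at least 16-fold higher in roots were 545 calls without it and 173 with it.

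The leaf genes with the largest differences were CA1, AT5G55450, AT5G50335, AT5G63180, GER3, ECS1, CA2, ESP, AT1G23130 and PIF5. CA1 (AT3G01500) and CA2 are carbonic anhydrases, which interconvert carbon dioxide and bicarbonate. CA1 read 9029, 10784, 12097, 11461 and 6487 in the 5 flight leaf arrays and 5.17, 2.15, 39.2, 12.2 and 2.59 in the flight root arrays, with no overlap and a difference of -10.50 ± 0.59 (adjusted p = 0.00027), or -7.65 with the offset. ESP (AT1G54040), the epithiospecifier protein that steers glucosinolate breakdown towards nitriles, read 13148, 17359.9, 22124, 20599 and 18256 in leaves and 45.3, 168, 267, 25.8 and 17.3 in roots. PIF5 (AT3G59060), a transcription factor that binds phytochrome and promotes growth in shade, read 1258, 1352, 1470.3, 1104 and 1131 in leaves and 2.99, 4.77, 2.31, 4.05 and 18.8 in roots, a difference of -8.04 ± 0.50. In ground control it was -7.89, and all 10 were called higher in leaves there too, with differences of -9.78 (AT5G55450) to -7.30 (AT5G50335). At least 16-fold higher in leaves were 435 calls, and 204 with the offset.

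Photosynthesis genes were uniformly higher in leaves. All 38 measured genes of the photosystems and their antennae were called higher in flight leaves, against 10.9% of all probe sets, and all 38 were called so on the ground. Their differences ran from -5.73 to -3.65 with a median of -4.65 in flight and -4.94 in ground control, while the median over all probe sets was 0.24 and 0.10. PETC (AT4G03280), the Rieske iron-sulfur protein of the cytochrome b6f complex, read 19119.8, 24468, 25213, 20077 and 17687 in flight leaves and 917, 681, 669.6, 606 and 888 in flight roots. Its difference was -4.83 ± 0.21 in flight and -4.94 ± 0.27 in ground control, and the interaction of 0.11 ± 0.34 had a 95% interval of -0.66 to 0.89. LHCB4.1 (AT5G01530), a minor antenna protein of photosystem II, read 21014, 24153, 29696, 21542 and 16835 in leaves and 1504, 1028, 895, 1074 and 1159.9 in roots, a difference of -4.32 ± 0.23. PSBS, which triggers heat dissipation of excess light, differed by -5.39 ± 0.26, plastocyanin gene PETE1 by -4.90 ± 0.37, the ATP synthase subunit ATPC1 by -4.62 ± 0.21 and the photosystem I subunit PSAE-2 by -4.55 ± 0.22. No member had an unadjusted interaction p under 0.05, although 34 of 38 interactions were positive, with a median of 0.32. Over all probe sets 13298 of 22746 were positive. After quantile normalization 31 of the 38 were positive, with a median of 0.17, and 11279 of all probe sets.

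Root arrays were not without photosynthesis signal. Summed over the 38 genes, the flight roots read 2.72% to 6.93% of the leaves of the same pool and the ground roots 2.21% to 5.89%. The highest root sums in flight were those of plate 2 (43285) and of the second pool of plate 6 (37156), and in ground control those of plate 6 (41811 and 34850.5), and the ranges of both environments overlapped. The source of this signal was not tested.

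The other chloroplast lists followed the photosystems. Of 23 genes of the Calvin cycle and photorespiration 22 were called higher in flight leaves, against 10.9% of all probe sets, with a list median of -5.16. The same 22 were called in ground control, where the median was -5.32. The exception was the catalase gene CAT2, at -0.05 ± 0.32. GDCH (AT2G35370), the lipoyl-carrying H protein of glycine decarboxylase, read 13805, 13862, 14697, 12316 and 11234 in leaves and 343, 287, 258, 215 and 345 in roots, a difference of -5.52 ± 0.18 (adjusted p = 0.000157). GAPB (AT1G42970), a subunit of the chloroplast glyceraldehyde phosphate dehydrogenase, differed by -5.27 ± 0.19, phosphoribulokinase gene PRK by -5.52 ± 0.23, aldolase gene FBA2 by -5.54 ± 0.37 and GGT1, a peroxisomal aminotransferase of photorespiration, by -3.75 ± 0.16. The interval of the interaction lay within 2-fold for 11 of the 22, PRK among them with an interaction of 0.03 ± 0.32. All 14 genes of chlorophyll synthesis and chloroplast regulation were called higher in leaves in both environments, with medians of -3.49 in flight and -3.72 in ground control. CHLG (AT3G51820), chlorophyll synthase, read 2650.4, 3015, 3177, 2844 and 2598 in leaves and 377, 540.5, 355, 437 and 370.4 in roots, a difference of -2.79 ± 0.16. CAO, which makes chlorophyll b, differed by -3.34 ± 0.17, the magnesium chelatase genes CHLH and CHLI1 by -3.65 ± 0.21 and -3.31 ± 0.20, and GLK2, a transcription factor of chloroplast development, by -1.67 ± 0.23.

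Regulators of leaf form were dimmer but divided the organs the same way. Of 24 genes of leaf patterning, stomata and cuticle 17 were called higher in flight leaves and none in roots, against 10.9% and 13.3% of all probe sets. Of the 17, 16 were also called on the ground, and 15 of the 24 were low-signal. EPF2 (AT1G34245), a peptide that limits stomatal number, read 242, 298, 271, 175 and 178 in leaves and 28.5, 27.6, 43.8, 21.4 and 22.2 in roots, a difference of -3.04 ± 0.16. YAB1 and YAB5, YABBY factors of the lower leaf side, differed by -4.34 ± 0.56 and -4.06 ± 0.42, and KCS10, an elongase of cuticular lipids, by -2.27 ± 0.18. With the offset MUTE was not called in flight (-0.97). MUTE, a stomatal lineage factor, differed by -3.28 ± 0.26 in flight but by -1.47 ± 1.04 on the ground, where it was not called. Its ground pool differences were 0.40 on plate 2, -4.45 and -4.35 on plate 4, and 0.96 and 0.09 on plate 6. The interaction of -1.81 ± 1.14 did not pass (adjusted p = 0.854, limma). TCP4, which restrains leaf cell division, was not called in flight at -0.35 ± 0.18. Shoot apex and flower markers were checked in the leaf samples, and 9 of the 10 were low-signal. STM (AT1G62360), the defining gene of the shoot meristem, read 512, 413, 333, 633 and 715 in flight leaves and 39.4, 26.5, 4.58, 20.8 and 17.1 in flight roots, a difference of -4.83 ± 0.41, and 415, 315, 449.6, 573 and 405 in ground leaves. Of the 10 shoot apex and flower markers only STM and SEP3, a flower gene, were called higher in leaves in both environments, while WUS and CLV3, which define the stem cell niche, read means of 3.36 and 4.76 in flight leaves, at the floor of the array. The summed signal of the 10 markers was 1516 to 2241 in flight leaves and 1407 to 2038 in ground leaves, against 1113 to 1411 in flight roots and 802 to 1320.4 in ground roots.

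**Figure D2:**
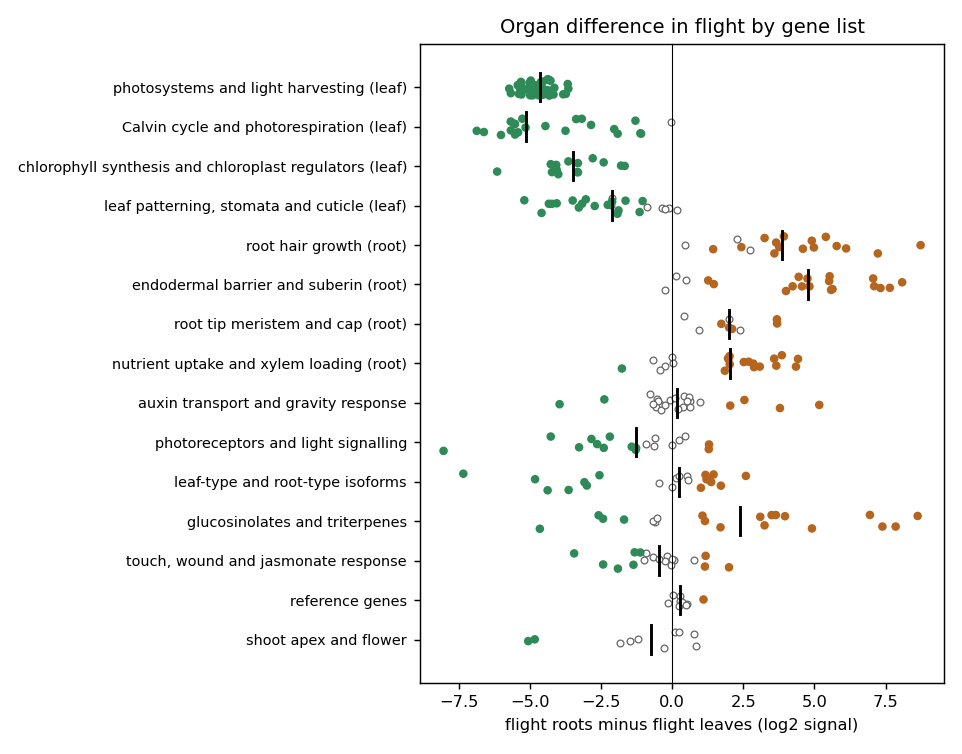
Difference between flight roots and flight leaves (x axis, log2 signal) of each measured member of the 15 gene lists. Filled points were called (brown higher in roots, green higher in leaves), open points were not, and the black bar is the list's median, which runs from -5.16 for the Calvin cycle to 4.79 for the endodermal barrier.

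Genes of the endodermal barrier were largely root transcripts in orbit. Of 20 measured members 17 were called higher in flight roots, against 13.3% of all probe sets, 15 of them also on the ground, and the median was 4.79 in flight and 5.21 in ground control. CASP2 (AT3G11550), a membrane scaffold of the Casparian strip, read 1053, 1479, 1820.4, 800.3 and 977 in flight roots and 5.85, 15.9, 11.3, 8.86 and 2.29 in flight leaves, a difference of 7.32 ± 0.37 (adjusted p = 0.000222), or 4.70 with the offset. KCS2 (AT1G04220), an elongase of suberin monomers, read 2113, 1514, 1402, 1091 and 1759.6 in roots and 92.3, 56.3, 89.1, 43.1 and 88.3 in leaves. ASFT, which adds ferulate to suberin, differed by 5.53 ± 0.22 in flight and 5.42 ± 0.31 in ground control and was kept within 2-fold. ESB1, a protein that places lignin in the strip, differed by 4.82 ± 0.28 and the peroxidase gene PER64 by 5.63 ± 1.07. The 3 members not called, KCS20, SCR and SHR, differed by -0.25 ± 0.17, 0.12 ± 0.22 and 0.48 ± 0.30.

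Of 18 root hair genes 15 were called higher in flight roots and none in leaves, against 13.3% and 10.9% of all probe sets. Of the 15, 14 were also called on the ground, where the median was 4.44 against 3.84 in flight. RHS19 (AT5G67400), a peroxidase of root hair cells, read 537, 573, 691, 436 and 637 in flight roots and 13.7, 2.84, 2.35, 2.80 and 3.06 in flight leaves, a difference of 7.23 ± 0.44. RHS13 differed by 5.78 ± 0.29 and the receptor-like kinase gene RHS10 by 4.59 ± 0.32. Of the 18 interactions 8 were positive, with a median of -0.22. After quantile normalization 5 were positive (median -0.70), and with the offset 1 was (median -0.34). Over all probe sets 13298, 11279 and 13363 of 22746 were positive in these 3 settings. The organ difference was smaller in flight for 2 members in the fit reported, at unadjusted p only. ADF8 (AT4G00680), an actin-depolymerising factor of root hairs, read 428, 497, 889.9, 427 and 541 in flight roots and 342, 1146, 1439.8, 737 and 1159 in ground roots. In leaves it read 23.2, 70.0, 37.5, 32.7 and 27.1 in flight and 8.05, 15.7, 4.26, 9.82 and 20.3 on the ground, without overlap between the environments. Leaf arrays thus read brighter in flight while root arrays overlapped. The ground leaf readings were all under the 25th percentile of the ground leaf arrays (32.9 to 68.9), where signals carry little information. The flight leaf readings of 23.2 and 27.1 were under that of the flight leaf arrays (31.2 to 34.5). The organ difference of ADF8 was 6.41 ± 0.46 on the ground and 3.93 ± 0.29 in flight, an interaction of -2.49 ± 0.57 (adjusted p = 0.427, limma). COW1 (AT4G34580), a phosphatidylinositol transfer protein that root hairs need for tip growth, read 182, 161, 234, 183 and 227 in flight roots and 96.6, 174, 137, 200.4 and 126 in flight leaves, which overlap, against 258, 584, 512, 307 and 538 in ground roots and 162, 152, 169.9, 158 and 139 in ground leaves, which do not. Its interaction was -0.97 ± 0.35 (adjusted p = 0.724, limma). In each direction 4.67% (larger root excess in flight) and 1.75% (smaller) of all probe sets reached an unadjusted interaction p under 0.05, or 659 and 696 in place of 1063 and 399 probe sets after quantile normalization.

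Root tip genes were near the floor of the array. Of 9 measured members of the root meristem and cap list 5 were called higher in flight roots, against 13.3% of all probe sets. Only 1 of them (BRN1) was also called on the ground, and 8 of the 9 were low-signal. With the offset, or after quantile normalization, 2 were called. An unadjusted interaction p under 0.05 was reached by 3 members with a larger root excess or smaller leaf excess in flight. None reached it in the reverse direction, where 4.67% and 1.75% of all probe sets did. The list's median interaction was 0.75, or 0.31 after quantile normalization and 0.35 with the offset. AIL6 (AT5G10510), a PLETHORA-type factor of the meristem, was the bright one, with 213, 320.0, 225, 347 and 328 in flight roots and 74.9, 75.8, 94.9, 79.5 and 103 in flight leaves, a difference of 1.73 ± 0.19 in flight and 0.90 ± 0.25 on the ground. The root cap factor BRN2 (AT4G10350) read 18.3, 44.9, 62.0, 31.8 and 65.1 in flight roots and 7.29, 2.43, 2.16, 3.00 and 2.59 in flight leaves, a difference of 3.69 ± 0.55 against 0.27 ± 0.61 on the ground (interaction 3.42 ± 0.88, adjusted p = 0.523). With the offset its flight difference was 0.95, so that it was no longer called. The calls of BRN1 and SMB, which specify root cap cells, were lost on leaving out 1 pool, that of BRN1 without the plate 2 pool, the first pool of plate 4 or the second of plate 6 (adjusted p = 0.0876, 0.0655 and 0.0907, limma), and that of SMB without any of these or without the first pool of plate 6 (adjusted p = 0.0625 to 0.0979). ACR4, a receptor kinase of the root tip and epidermis, was called in neither environment, at 0.40 ± 0.29 in flight and -1.03 ± 0.31 on the ground (adjusted p of the interaction = 0.632).

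Most genes of nutrient uptake were root transcripts in orbit. Of 21 genes of nutrient uptake and xylem loading 14 were called higher in flight roots and 1 in leaves, against 13.3% and 10.9% of all probe sets. Of the 14 root calls 11 were also made on the ground. SULTR1;2 (AT1G78000), the main sulfate uptake transporter of roots, read 5408, 5017, 4741, 3720.4 and 3834 in flight roots and 185, 209.9, 191, 229 and 239 in flight leaves, with no overlap, and differed by 4.42 ± 0.19 in flight and 4.74 ± 0.23 on the ground (kept within 2-fold). The potassium channel gene AKT1 differed by 2.51 ± 0.18 and the high-affinity potassium transporter gene HAK5 by 3.85 ± 0.34. SKOR (AT3G02850), which releases potassium into the xylem, read 27.6, 111, 153, 69.6 and 33.3 in flight roots and 1.78, 18, 5.35, 4.19 and 6.15 in flight leaves, and 103, 62.9, 110.0, 33.7 and 108 and 39.5, 16.2, 42.2, 33.5 and 40.1 on the ground. Its larger difference in flight, 3.58 ± 0.40 against 1.23 ± 0.30, stood beside mean leaf signals of 7.10 in flight and 34.3 on the ground and mean root signals of 78.9 and 83.6 (adjusted p of the interaction = 0.421). In each direction 1 member reached an unadjusted interaction p under 0.05, and the list's median interaction was -0.27. NRT2.2 went the other way from SKOR, with pool differences of 0.86, -0.60, -1.22, 0.03 and -0.34 in flight. On the ground its pool differences were -0.23, 0.35, 0.80, 2.34 and 3.00. AMT1;1 (AT4G13510), an ammonium transporter that was the leaf call, read 136, 317, 411, 207 and 341 in roots and 882, 1002, 913, 1071 and 661 in leaves, a difference of -1.77 ± 0.31 against -0.99 ± 0.29 on the ground, where it was not called.

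Most leaf-type and root-type isoforms differed between the organs in orbit as they did on the ground. Of 21 measured genes of this list 8 were called higher in flight roots and 7 in flight leaves, against 13.3% and 10.9% of all probe sets. On the ground 14 of these 15 were called the same way, the exception being the nitrate reductase gene NIA1 at 1.17 ± 0.17 in flight and 0.87 ± 0.22 on the ground. Ferredoxin carries electrons from photosystem I in leaves and towards nitrite and glutamate in roots. The leaf ferredoxin gene FD2 (AT1G60950) read 22043, 28507, 26647, 21716 and 19361 in flight leaves and 2889, 2917, 2251, 2776 and 3019 in flight roots, a difference of -3.09 ± 0.18 in flight and -3.12 ± 0.19 on the ground. The root ferredoxin gene FD3 (AT2G27510) read 8271, 8837, 8105, 7802 and 9106 in flight roots and 2776, 2699, 2133, 2934 and 2398 in flight leaves, a difference of 1.71 ± 0.15 in flight and 2.05 ± 0.14 on the ground. Neither pair of groups overlapped, and the interaction was 0.04 ± 0.25 for FD2 and -0.34 ± 0.18 for FD3, both with intervals within 2-fold. FD1, the other leaf type, differed by -2.56 ± 0.20.

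The reductases that pass electrons to and from ferredoxin were split in the same manner. The leaf types LFNR1 and LFNR2 differed by -4.38 ± 0.22 and -4.82 ± 0.28. The root type RFNR2 (AT1G30510) read 4059, 6564, 5446, 4696 and 5007 in roots and 724, 813, 866, 893 and 952 in leaves, a difference of 2.59 ± 0.16. The other root type, RFNR1, was not called at 0.14 ± 0.21, and its arrays overlapped. Of the glutamine synthetases the plastid enzyme GLN2 (AT5G35630) read 13240.5, 18943, 18656, 14569 and 11517 in leaves and 1733, 1635, 2476, 1864 and 1821 in roots, a difference of -3.0 ± 0.17, while the cytosolic GLN1;2 differed by 1.21 ± 0.26 and GLN1;1 and GLN1;3 were not called at 0.00 ± 0.30 and 0.53 ± 0.21. Among glutamate synthases the leaf form GLU1 (AT5G04140) read 4941, 5181, 4512, 4917 and 4591 in leaves and 68.5, 28.5, 12.1, 9.59 and 102 in roots, a difference of -7.34 ± 0.58, against 1.01 ± 0.25 for GLU2 and 1.37 ± 0.24 for the NADH form GLT1. GLU2 lay just over the 2-fold limit. Its call was lost under quantile normalization (0.96), with the offset (0.96), with a shared 75th percentile (0.94) and on plate means (adjusted p = 0.0999, limma). It was also lost without the plate 2 pool, either plate 4 pool or the second plate 6 pool (adjusted p = 0.0688 to 0.0885, limma). The call of GLN1;2 was lost without the first pool of plate 4 and on plate means (adjusted p = 0.053 and 0.0774, limma). The plastid glucose 6-phosphate dehydrogenases gave -3.64 ± 0.23 for G6PD1 and 1.23 ± 0.16 and 1.45 ± 0.14 for G6PD2 and G6PD3. NIA2, NIR1 and HEMA2 were not called, at -0.45 ± 0.24, 0.55 ± 0.13 and 0.23 ± 0.18. In all, 8 of the 14 shared calls were kept within 2-fold.

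**Figure D3:**
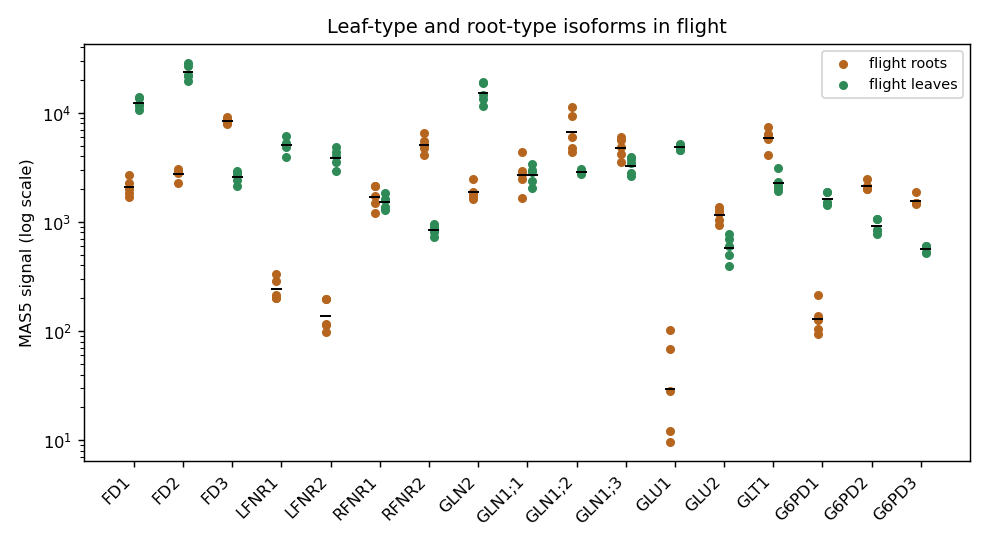
MAS5 signal (log scale) of 17 isoform genes in the 5 flight root and 5 flight leaf arrays; points are arrays and bars are geometric means. FD1, FD2, LFNR1, LFNR2, GLN2, GLU1 and G6PD1 were higher in leaves and FD3, RFNR2, GLN1;2, GLU2, GLT1, G6PD2 and G6PD3 higher in roots, while RFNR1, GLN1;1 and GLN1;3 were not called.

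Few carriers of auxin and parts of the gravity response reached a 2-fold difference between the organs. Of 24 measured genes 4 were called higher in flight roots and 2 in flight leaves, near the shares of all probe sets (13.3% and 10.9%), and for 11 of the 24 the root and leaf arrays did not overlap in flight, where 19.3% of all probe sets had all root arrays above and 12.6% all leaf arrays above. Both environments called 5 of the 6 the same way, and the list's median was 0.15 in flight and 0.08 in ground control. PIN2 (AT5G57090), the auxin efflux carrier of root epidermis and cortex that root gravitropism depends on, read 398, 459, 656, 584 and 634 in flight roots and 31.9, 11.3, 9.19, 55.4 and 4.02 in flight leaves. Every flight root array was above every leaf array, with pool differences of 3.64, 5.34, 6.16, 3.40 and 7.30, a mean of 5.17 ± 0.64 (adjusted p = 0.00261, limma; 3.31 with the offset) and 4.19 ± 0.56 on the ground. Its interaction was 0.97 ± 0.91 with an interval of -1.06 to 3.00, too wide to place both differences within 2-fold of each other. LAX3 (AT1G77690), an auxin influx carrier of lateral root emergence, read 1745, 1672, 1619, 1697 and 1739 in flight roots and 476, 337, 293, 435 and 582 in flight leaves, a difference of 2.04 ± 0.18 against 2.60 ± 0.16 on the ground. ABCB4 (AT2G47000), an auxin transporter of the root epidermis, read 1502, 1611, 1850.4, 1412 and 1140.4 in flight roots and 101, 81.8, 109, 154 and 103 in flight leaves, a difference of 3.79 ± 0.21 against 4.69 ± 0.32. In LAX3 and ABCB4 the organ difference was smaller in flight at unadjusted p only (adjusted p = 0.747 and 0.767). Their flight root means were 1694 and 1503 against 1804 and 1535 on the ground, and their leaf means 425 and 110.0 against 303 and 60.2, so that the means of the leaves differed more than those of the roots.

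The LAZY proteins link settled plastids to auxin flow, LAZY1 mainly in shoots and LZY3 mainly in roots, and their transcripts stood in opposite organs. LAZY1 (AT5G14090) read 274, 319.6, 265, 145 and 225 in flight leaves and 4.25, 24.9, 42.4, 19.2 and 9.65 in flight roots, a difference of -3.96 ± 0.53 in flight and -3.37 ± 0.41 on the ground. LZY3 (AT1G72490) read 81.8, 33.3, 40.7, 60.7 and 67.6 in flight roots and 14.8, 3.11, 18.3, 3.17 and 25.9 in flight leaves, a difference of 2.54 ± 0.51, and was not called on the ground at 1.46 ± 0.47. Both are low-signal, and LZY3 was not called in flight with the offset (0.89) or without the first pool of plate 4 (adjusted p = 0.0507). PGM1 (AT5G51820), the plastid phosphoglucomutase that starch synthesis needs, read 854, 963, 1050.2, 1180.0 and 1036 in flight leaves and 206, 184, 194, 244 and 152 in flight roots. Its difference of -2.39 ± 0.16 in flight and -2.33 ± 0.15 on the ground was the 1 call of this list kept within 2-fold (interaction -0.06 ± 0.19, interval -0.49 to 0.38).

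The other auxin and gravity genes were not called in flight. ABCB1, an efflux carrier of the whole plant axis, came closest in roots, with 2789.9, 3154, 2393, 2553 and 2799 against 1389, 1049, 1456, 1626 and 1557 in leaves, a difference of 0.96 ± 0.19 that did not overlap but fell short of 2-fold and was 0.93 ± 0.13 on the ground. ABCB19, which carries auxin down the stem, was higher in leaves by less than 2-fold in both environments (-0.76 ± 0.19 and -0.81 ± 0.13). PIN3, an efflux carrier of the gravity-sensing cells, differed by -0.53 ± 0.15 and -0.49 ± 0.17. PIN4 and PIN7 differed by -0.08 ± 0.23 and -0.42 ± 0.18, and the influx carriers AUX1, LAX1 and LAX2 by 0.40 ± 0.17, -0.52 ± 0.18 and 0.59 ± 0.19, all with overlapping arrays. The kinases PID, WAG1, WAG2 and D6PK, which phosphorylate PIN proteins, differed by -0.56 ± 0.27, -0.38 ± 0.37, 0.64 ± 0.34 and 0.10 ± 0.17, and TWD1, a partner of the ABCB carriers, by 0.39 ± 0.26. The DnaJ-like genes ARG1 and ARL2, which root gravitropism needs, differed by 0.20 ± 0.16 and -0.27 ± 0.35, and SGR2 and SGR5 of shoot gravitropism by 0.53 ± 0.18 and -0.67 ± 0.23. WAG2 and SGR5 were called on the ground, at 1.34 ± 0.28 and -1.25 ± 0.26.

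**Figure D4:**
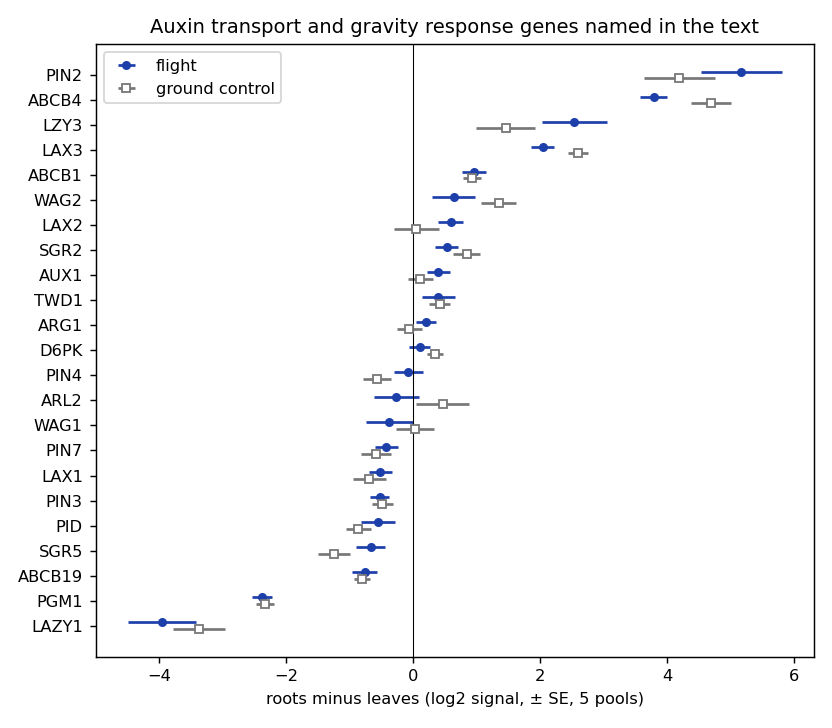
Organ difference (roots minus leaves, log2 signal, ± moderated SE of the fit to 5 pools) of the auxin transport and gravity response genes named in the text in flight (filled circles) and ground control (open squares), sorted by the flight value. PIN2, ABCB4, LZY3 and LAX3 lie to the right and PGM1 and LAZY1 to the left, and the others lie within 1 of equality in flight.

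Photoreceptor and light signalling genes were more often higher in leaves. Of 18 genes 10 were called higher in flight leaves and 2 in roots, against 10.9% and 13.3% of all probe sets. The root calls were thus near the background. On the ground 10 of the 12 were called the same way. PHOT2 (AT5G58140), a blue light receptor of phototropism and chloroplast movement, read 1098, 1076, 880.0, 1482 and 1082 in flight leaves and 67.1, 42.7, 34.9, 102 and 61.0 in flight roots, a difference of -4.27 ± 0.19, and PHOT1 differed by -3.27 ± 0.20. The signalling protein RPT2 differed by -2.19 ± 0.20. PKS1, which binds phytochrome and phototropin, differed by -1.27 ± 0.27 against -0.52 ± 0.20 on the ground (adjusted p of the interaction = 0.776, limma). The call of PKS1 was lost without either plate 4 pool (adjusted p = 0.0509 and 0.0552, limma) and on plate means (0.0743). The 2 root calls were HY5, a factor that promotes light responses, at 1.29 ± 0.15, and CHS, the first enzyme of flavonoid synthesis, at 1.29 ± 0.16. ELIP2, a light stress protein of chloroplasts, differed by -0.91 ± 0.20 in flight and -0.28 ± 0.19 on the ground (adjusted p = 0.759, limma).

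Genes of defence metabolism were divided between the organs. Of 20 genes of glucosinolate and triterpene synthesis 13 were called higher in flight roots and 4 in flight leaves, against 13.3% and 10.9% of all probe sets. On the ground 16 of the 17 were called the same way. PYK10 (AT3G09260), the beta-glucosidase of root ER bodies, was among the brightest root transcripts, with 30188, 25179, 35782, 33339 and 27268 in flight roots and 2760.2, 1775, 1504, 1498 and 2424 in flight leaves. Its difference was 3.96 ± 0.24 in flight and 4.62 ± 0.22 on the ground, and the leaf signals were 1426, 1328, 759, 1892 and 1161 on the ground (adjusted p of the interaction = 0.809). CYP79B2 (AT4G39950), which makes the indole glucosinolate precursor from tryptophan, read 8491, 5401, 6901, 5289 and 5817 in roots and 799, 712, 697, 746 and 727 in leaves, a difference of 3.09 ± 0.16 that was kept within 2-fold. CYP705A5 of the thalianol cluster differed by 7.39 ± 0.42. CYP83B1 differed by 1.06 ± 0.16 in flight and 0.71 ± 0.17 on the ground, where it was not called. In flight CYP83B1 fell under 2-fold without the plate 2 pool (0.99) and with a shared 75th percentile (0.99). The 4 leaf calls were the regulators MYB29 (-4.65 ± 0.41), MYB76 (-2.43 ± 0.31) and MYB51 (-1.69 ± 0.25) and the chain elongation gene MAM1 (-2.59 ± 0.26).

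Touch, wound and jasmonate genes, which respond to handling and injury, had the largest median interaction of the 15 lists. The root tip list followed at 0.75, which was 0.31 after quantile normalization. Of 19 genes 3 were called higher in flight roots and 6 in flight leaves, against none and 10 on the ground, and 5 were called in both. Over all probe sets the shares were 13.3% and 10.9% in flight and 11.6% and 12.3% on the ground, so that the root calls of flight were near the background. Several members, among them TCH4, WRKY40, MYB15, JAZ1, DDF1 and DREB2A, were named in the study from these same arrays, so that the list is not independent evidence of its direction. The list's median was -0.48 in flight and -1.0 on the ground. Of 19 interactions 18 were positive, with a median of 0.77 against 0.08 over all probe sets. An unadjusted p under 0.05 was reached by 8 genes with a smaller leaf excess or a larger root excess in flight and by none with the reverse, where 4.67% and 1.75% of all probe sets did. After quantile normalization the counts were 9 and none, with a median of 0.86. No gene of the list passed at an adjusted p under 0.05 in this fit, while with an intensity trend and robust variances WRKY40 and TCH4 did (adjusted p = 0.0046 and 0.00765, limma).

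Pool by pool, the list's median difference was -0.55, -0.65, -0.83, -0.34 and -0.18 in flight and -1.47, -0.94, -0.91, -1.93 and -1.66 on the ground, without overlap. The summed signal of the 19 genes was 19568 to 58053 in flight roots and 8804 to 18235 in ground roots, again without overlap. In leaves the sums overlapped, 37006 to 74790 in flight and 23274 to 73113 on the ground. Plates moved with the list as well: the lowest flight sums of both organs were those of plate 2, and the lowest ground sums of both organs those of plate 4. The part of plate position in these values was not tested.

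TCH4 (AT5G57560), a xyloglucan-modifying enzyme of the cell wall that is induced by touch, had the next smallest interaction p of the list after WRKY40. It read 3156, 5207, 4962, 8301 and 8179 in flight roots and 9160.1, 20250.3, 18840.5, 13406 and 13317 in flight leaves. On the ground it read 1439.8, 626, 575, 2441 and 1843 in roots and 14069.9, 6665, 6664, 16852 and 12643 in leaves. Leaves were higher in every pool, with pool differences of -1.54, -1.96, -1.92, -0.69 and -0.70 in flight and -3.29, -3.41, -3.54, -2.79 and -2.78 on the ground, and the leaf excess of -3.16 ± 0.18 on the ground was -1.36 ± 0.27 in flight (interaction 1.8 ± 0.33, adjusted p = 0.273). The calmodulin-like gene TCH3 differed by -2.43 ± 0.30 in flight and -2.89 ± 0.28 on the ground, and the lipoxygenase gene LOX3 by -3.45 ± 0.23 and -3.62 ± 0.62. The 3 root calls of flight were MYB15 (2.00 ± 0.20), JAZ1 (1.15 ± 0.14) and DREB2A (1.17 ± 0.26), with ground values of 0.96, 0.54 and 0.31. MYB15 was not called by the methods' t-test after adjustment (adjusted p = 0.0716).

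Over all probe sets a single interaction passed the adjusted threshold (0.0044% of those tested), that of AT3G30710, with mean signals of only 34.6 in flight roots, 17.8 in flight leaves, 13.5 in ground roots and 36.3 in ground leaves (interaction 2.43 ± 0.21, adjusted p = 0.0151, limma). It was not called under quantile normalization (adjusted p = 0.555), with the offset (0.233), without the block (0.745), on plate means (0.75) or with an intensity trend and robust variances (0.63), nor on leaving out either flight pool of plate 4 or of plate 6 or the second ground pool of plate 4 or of plate 6 (0.0589 to 0.100). Unadjusted, 1462 probe sets had p under 0.05. The count past the adjusted threshold was 10 without low-signal probe sets, 10 with the offset, 22 with an intensity trend and robust variances, 25 with the plate in place of the pool as block, and 0 after quantile normalization or on plate means. In every one of these settings with calls, all calls were a larger root excess or smaller leaf excess in flight.

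The 10 genes with the smallest interaction p among those with a mean signal of at least 200 in some group were AT1G74450, AT4G29780, NUDT21, CBF1, ABCG16, GATL10, AT2G35290, WRKY40, AT5G11070 and AT1G20823, with adjusted p of 0.116 to 0.229. With an intensity trend and robust variances all 10 passed, with adjusted p of 0.0012 to 0.045 (limma), and after quantile normalization or on plate means none did. In 8 of the 10 a leaf excess of 2-fold or more on the ground was under 2-fold in flight. NUDT21 (AT1G73540), a Nudix hydrolase, read 1848, 3275, 4408, 3254 and 4007 in flight roots and 1654, 5164, 5210.4, 4234 and 4601 in flight leaves, which overlap, for a difference of -0.26 ± 0.17. On the ground it read 828, 292, 365, 1392 and 1314 in roots and 3540.1, 1801, 1331, 4735 and 4205 in leaves, with pool differences of -2.10, -2.63, -1.87, -1.77 and -1.68 and a mean of -2.01 ± 0.19. Its leaf arrays overlapped between the environments, while every flight root array was brighter than every ground root array. CBF1 (AT4G25490), a regulator of cold-responsive genes, had pool differences of 0.49, 0.01, -0.18, -0.97 and -0.47 in flight and -3.03, -3.06, -2.34, -1.98 and -2.38 on the ground (interaction 2.33 ± 0.32, adjusted p = 0.116).

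GATL10, a galacturonosyltransferase-like protein, read 456, 1245, 1444, 1483 and 1641 in flight roots and 437, 1365, 1476, 1439.9 and 1287 in flight leaves, a difference of 0.06 ± 0.14 against -1.42 ± 0.19 on the ground. WRKY40, a transcription factor of defence, differed by -0.94 ± 0.15 in flight and -2.61 ± 0.22 on the ground, and AT1G74450 by -0.40 ± 0.14 and -2.20 ± 0.20. In NUDT21, GATL10, WRKY40 and AT1G74450 alike, the plate 2 flight roots and leaves were the lowest of their groups. AT1G20823 had a root excess of 0.60 ± 0.16 in flight and a leaf excess of -0.61 ± 0.16 on the ground, neither of them 2-fold. ABCG16 (AT3G55090), an ABC transporter of the G subfamily, was the other exception. It read 133, 209, 235, 222 and 315 in flight roots and 3.32, 1.98, 1.38, 6.14 and 1.45 in flight leaves, and 37.5, 82.5, 90.6, 98.8 and 146 and 28.5, 46.3, 11.6, 19.3 and 29.0 on the ground, so that its root excess was 6.48 ± 0.46 in flight and 1.78 ± 0.44 on the ground, or 2.63 in flight with the offset.

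**Figure D5:**
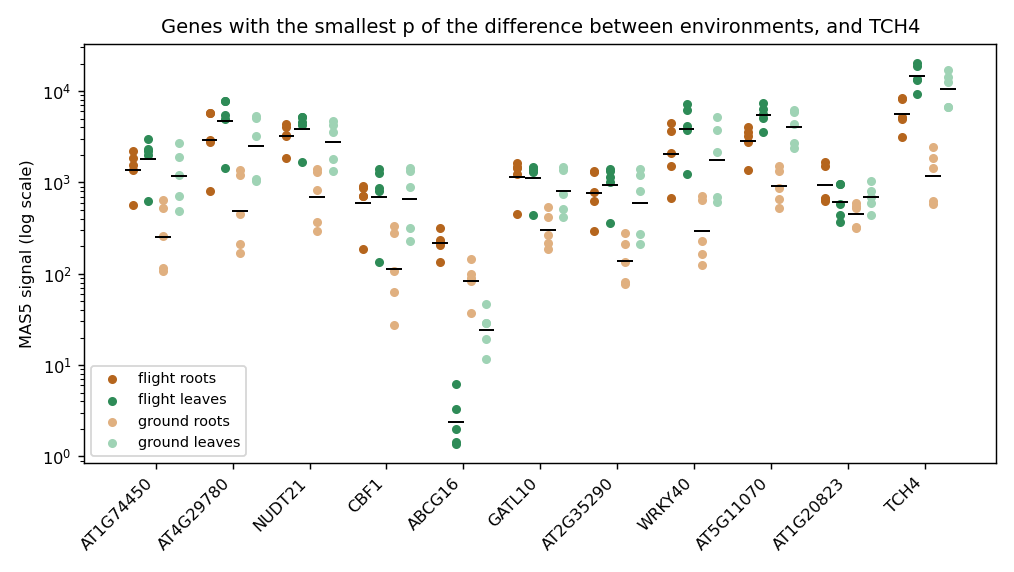
MAS5 signal (log scale) of the 10 genes with the smallest p of the interaction, and of TCH4, in flight roots, flight leaves, ground roots and ground leaves, 5 arrays each; points are arrays and bars are geometric means. For NUDT21, CBF1, GATL10 and WRKY40 the geometric mean of the ground roots is the lowest of the 4 groups, while the flight roots and flight leaves overlap.

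Reference genes differed by -0.16 to 1.1 between the organs in flight. Of 9 measured genes 1, the actin gene ACT8, was called higher in roots in both environments, with 6858, 6173, 8138, 5817 and 5707 in flight roots and 3219.7, 2901, 3224, 2436 and 3504 in flight leaves, a difference of 1.1 ± 0.15. The share of all probe sets called higher in flight roots was 13.3%. ACT2 differed by 0.27 ± 0.14 and the phosphatase subunit gene PP2AA3 by 0.02 ± 0.14. The median of the list was 0.27 in flight, close to that of all probe sets.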

How the data were processed

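The deposited values were MAS5 signals, which are linear intensity values that the authors computed per Affymetrix ATH1 array and scaled to a shared trimmed mean, from RNA of roots and leaves amplified with an Ovation Pico kit. A deposited annotation column (unit other) paired probe sets with loci, and symbols came from the RefSeq table of assembly TAIR10.1. The authors' own comparison tables were not used. Of 22810 probe sets, 64 controls were left out and 22746 were tested, of which 1172 may detect several genes.

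Log2 signals were fitted with limma 3.58.1 in R 4.3.3 and moderated variances, with the pool as block, separately in flight and ground control, and on all 20 arrays for the interaction. The scripts were tested on simulated data. Nothing in the labels says that pools came from separate cultures and pools of 1 plate shared it, so p-values measure the spread between these pools. Deviations of roots and leaves from the same flight pool correlated at -0.06 to 0.23, and ground pools at -0.07 to 0.11. For the other pool of the same plate the values were 0.10 to 0.21 in flight and -0.04 to 0.09 on the ground. Between plates they were -0.15 to 0.04 and -0.13 to 0.17. Same-pool and same-plate ranges overlapped, so these values do not settle the pairing. The block follows the plate and replicate numbers, and counts without it are given in the closing section. No detection flags were used.

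Members and lists were chosen with earlier results of these data known. Named by rule were the 10 largest differences in each direction at a signal of at least 1000, the 10 smallest interaction p at a signal of at least 200, in each list at most 4 genes by flight p and 2 by interaction p, and all auxin, gravity and isoform genes, of which 1 is not reported here. Other genes named, among them HY5, CHS, DREB2A, AMT1;1, MYB29, MYB76, MYB51, MAM1, AT3G30710 and those called in opposite directions, were chosen after their values were seen. Of 321 list members 288 were measured by a probe set of 1 gene. Alternatives were quantile normalization, a shared 75th percentile, an offset, other blocks, plate means, no low-signal probe sets, other fold limits, the methods' t-test and leaving out each pool. The at least 16-fold counts with the offset and the list interactions under other scalings were added after the data were seen.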

Additional observations from a re-analysis of the deposited data

Results flagged for a closer look

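Within the 5 flight root and the 5 flight leaf arrays, 28 of 306 sets of signals, from 153 genes named above, held an array far from the other 4, judged by its gap to the nearest array as a share of the group's range on the log2 scale (limit 0.71). Chance alone flags about 1 in 20 such groups. The plate 2 pool was the outlying array in 14 of the 28, 8 times in leaves and 6 times in roots.

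The plate 2 flight array was the lowest for several genes, among them genes of the interaction. In leaves these were AT1G74450 (share 0.743), AT4G29780 (0.735), NUDT21 (0.819), CBF1 (0.76), GATL10 (0.887) and AT2G35290 (0.774), and in roots CBF1 (0.835), GATL10 (0.784), DDF1 (0.8) and SGR5 (0.844). It was the highest in leaves for RHS19 (0.851) and BRN2 (0.731) and in roots for LAX1 (0.785) and AT5G55450 (0.761).

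On plate 4, the first pool was highest for PRP3 in leaves (0.799) and for ARG1 (0.717), G6PD2 (0.758) and G6PD3 (0.9) in roots, and lowest for NIA2 in roots (0.783) and SEP3 in leaves (0.807). The second pool was highest for AT5G50335 in roots (0.789) and SGR5 in leaves (0.819) and lowest for HAK5 in leaves (0.802) and FD2 in roots (0.714). On plate 6, the first pool was lowest for KCS10 in roots (0.779), and the second was lowest for GAPB (0.719) and PIN3 (0.729) in leaves and highest for ELIP2 in roots (0.712).

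The organ difference of AT3G30710 in flight exceeded that on the ground by 2.43 on the log2 scale, the only interaction past the adjusted threshold in the fit reported, at signals near the floor of the array. It was not called in several other fits.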

How the results depend on the processing

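Of the 141 genes named by rule, 96 were called in flight. Of these, 85 stayed called at the 2-fold limit in every alternative fit that held their probe set. The other 11 lost the call in at least 1 (MUTE, BRN1, BRN2, SMB, LZY3, PKS1, GLN1;2, GLU2, CYP83B1, MYB15 and TCH4). Other fold limits were not applied to the named genes, and low-signal genes were absent from the fit without low-signal probe sets. No called difference of a named gene changed its sign, but the order of the organs by number of calls turned: quantile normalization gave 2506 root and 2881 leaf calls in flight, and moved the median interaction of all probe sets from 0.08 to -0.0045. Without low-signal probe sets 1749 were called higher in flight roots and 1921 in leaves, and 1452 and 1682 in both environments. At least 4-fold differences numbered 1678 higher in flight roots, 1461 in flight leaves, 1409 in ground roots and 1686 in ground leaves, and without a fold limit 4137 were called higher in ground roots. On plate means (3 pairs) 1623 were called higher in ground roots, 1353 were called in roots in both environments and 890 were kept within 2-fold, against 2697 with the offset.

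For the interaction, the count past the adjusted threshold was 1 in the fit reported, 0 after quantile normalization and on plate means, 10 with the offset, 10 without low-signal probe sets, 25 with the plate as block and 22 with an intensity trend and robust variances. At an unadjusted p under 0.05, quantile normalization gave 659 higher and 696 lower in flight and leaving out low-signal probe sets 517 higher, while plate means gave 225 lower. The offset moved the medians of the lists for leaf patterning (-1.08), root hairs (2.17), endodermal barrier (3.65), root tip (0.94) and glucosinolates (1.28), and quantile normalization those of leaf patterning (-2.50) and root tip (1.61). Of the root tip list 2 genes were called in either setting. The cause of these shifts beyond the offset's own compression of dim signals was not tested.

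Leaving out 1 pool in turn gave 2640 to 2785 root calls and 2274 to 2362 leaf calls in flight, 2219 to 2642 and 2478 to 2728 on the ground, 1879 to 2135 root calls and 2014 to 2073 leaf calls in both, 1340 to 1461 kept within 2-fold, 0 to 3 interactions, and 874 to 1271 higher and 315 to 502 lower at an unadjusted p under 0.05. Without the replicate block, flight gave 3096 root and 2527 leaf calls, 2324 and 2219 were called in both environments, and 1707 were kept within 2-fold. The methods' t-test gave 2874 root and 2438 leaf calls in flight at their limits, and 2916 and 2435 after Benjamini-Hochberg adjustment at 2-fold. With 5 pools from 3 plates, low-signal probe sets limit what can be compared, since a dim organ's reading sets the size of their difference.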
